A study of Mus musculus with 2 samples.

Results

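Kinesins are motor proteins that step along microtubules with energy from ATP. The genes described here are the protein-coding mouse genes whose symbol begins with Kif or Kifc and a digit, matched by Ensembl identifier. The rule found 43 of 43346 annotated genes, of which 21474 are protein-coding. By known role, 17 members were counted as transport motors, 14 as mitotic motors and 6 as motors of the cilium and of hedgehog signalling. The other 6 members were counted in no class. Among these, Kif1bp encodes a protein that binds KIF1 motors and is itself no motor, although its symbol meets the rule.

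The RNA came from the whole brain of embryos of the inbred strain C57BL/6J at embryonic day 14.5, taken from littermates of both sexes with no treatment and no altered allele named in the labels. Polyadenylated RNA above 200 nt, depleted of ribosomal RNA, was sequenced in 2 stranded libraries with added spike-in RNA. They form 1 group, so no contrast between conditions existed and no test was run. The labels number them as biological replicates 1 and 2 but give both the same donor and do not say which animals went into which library, so the spread between them may be technical.

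At this age the brain holds dividing progenitors along the ventricles beside newly formed neurons that extend axons and dendrites. Neurons depend on kinesin-1, kinesin-2 and kinesin-3 motors, which carry vesicles, organelles and RNA from the cell body towards the microtubule plus ends of the axon. Dividing cells use another set of kinesins, which separate the spindle poles, move and align chromosomes, shorten microtubules or build the midzone at which the daughter cells part. In many mitotic genes a short promoter element, the cell cycle genes homology region, keeps transcription low outside the late cell cycle, and a CCAAT box bound by the factor NF-Y often lies upstream of it.

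The promoter windows of the classes differed in a pair of short motifs, and 6 windows are shown to make this visible. They are RefSeq promoters (GRCm38.p6), each running from 250 bases before to 50 bases after an annotated start, read 5′ to 3′ on the gene's strand. Capitals mark the core of the cell cycle genes homology region, TTTGAA or its reverse complement TTCAAA, and the CCAAT box, which reads ATTGG where it lies on the opposite strand. The first pair belongs to transport motors known from neurons, Kif5c at chr2:49619036-49619335 (+ strand) and Kif1a at chr1:93101825-93102124 (- strand). The other windows belong to mitotic motors, Kif11 at chr19:37376132-37376431 (+ strand), Kif22 at chr7:127042371-127042670 (- strand), Kif23 at chr9:61946750-61947049 (- strand) and Kif18a at chr2:109280488-109280787 (+ strand).
Kif5c: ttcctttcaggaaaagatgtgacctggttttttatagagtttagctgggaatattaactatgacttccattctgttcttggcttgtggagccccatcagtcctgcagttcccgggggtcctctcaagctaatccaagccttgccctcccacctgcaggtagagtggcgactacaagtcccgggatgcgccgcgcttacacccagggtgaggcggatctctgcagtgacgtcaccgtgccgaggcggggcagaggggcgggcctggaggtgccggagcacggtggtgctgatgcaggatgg
Kif1a: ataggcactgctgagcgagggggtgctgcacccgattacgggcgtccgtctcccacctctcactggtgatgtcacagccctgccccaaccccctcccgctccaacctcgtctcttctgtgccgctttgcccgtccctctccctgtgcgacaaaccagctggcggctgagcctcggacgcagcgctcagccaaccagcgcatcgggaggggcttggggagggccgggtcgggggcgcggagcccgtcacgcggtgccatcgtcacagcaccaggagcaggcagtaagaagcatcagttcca
Kif11: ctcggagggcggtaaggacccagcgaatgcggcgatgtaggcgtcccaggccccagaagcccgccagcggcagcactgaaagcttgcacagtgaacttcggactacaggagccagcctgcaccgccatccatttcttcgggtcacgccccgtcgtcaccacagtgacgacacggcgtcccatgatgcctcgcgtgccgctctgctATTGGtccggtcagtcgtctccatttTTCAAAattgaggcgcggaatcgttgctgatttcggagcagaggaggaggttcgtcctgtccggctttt
Kif22: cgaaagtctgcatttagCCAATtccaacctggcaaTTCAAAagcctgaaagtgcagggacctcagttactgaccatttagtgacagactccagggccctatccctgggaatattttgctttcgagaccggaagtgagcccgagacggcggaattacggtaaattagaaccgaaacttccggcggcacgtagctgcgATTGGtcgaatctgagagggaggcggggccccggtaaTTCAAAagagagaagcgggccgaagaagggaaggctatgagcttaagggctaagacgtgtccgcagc
Kif23: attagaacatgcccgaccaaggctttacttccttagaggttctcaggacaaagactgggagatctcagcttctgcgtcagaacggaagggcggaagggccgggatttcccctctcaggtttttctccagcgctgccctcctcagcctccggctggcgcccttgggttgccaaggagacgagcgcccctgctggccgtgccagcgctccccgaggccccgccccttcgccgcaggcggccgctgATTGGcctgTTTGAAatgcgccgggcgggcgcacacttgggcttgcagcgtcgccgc
Kif18a: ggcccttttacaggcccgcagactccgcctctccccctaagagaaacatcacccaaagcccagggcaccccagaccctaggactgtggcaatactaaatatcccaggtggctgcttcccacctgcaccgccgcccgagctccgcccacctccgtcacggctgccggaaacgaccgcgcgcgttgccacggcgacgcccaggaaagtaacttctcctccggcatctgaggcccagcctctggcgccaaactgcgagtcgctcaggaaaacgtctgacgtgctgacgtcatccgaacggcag

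In the Kif11 window the opposite-strand TTTGAA began 19 bases before the start and the CCAAT box 45 bases before it. Kif22 held a pair of each motif, with the nearest TTTGAA beginning 17 bases and the nearest CCAAT box 54 bases before the start. In Kif23, TTTGAA began at base 3 of the transcript and the CCAAT box 7 bases upstream of the start. The windows of Kif5c, Kif18a and the start of Kif1a shown above held neither motif.

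RefSeq windows were found for 33 of the 43 members, and the others were Kif21b, Kif5a, Kif5b, Kifc2, Kifc3, Kif13b, Kif20a, Kif19a, Kif28 and Kif1bp. TTTGAA on either strand occurred in the windows of 1 of 11 transport motors (9.09%) and of 11 of 13 mitotic motors (84.6%), against 18.5% of 17491 protein-coding genes. The transport gene with the motif was Kif1a, in the window of a second annotated start at chr1:93082431-93082730. The mitotic genes without it were Kif18a and Kif2b. A CCAAT box was found in 3 of 11 transport motors (27.3%), in 9 of 13 mitotic motors (69.2%) and in 42.3% of protein-coding genes. No transport motor held both motifs, whereas 8 of 13 mitotic motors (61.5%) and 8.37% of protein-coding genes did. Within 50 bases of a start, a distance chosen after the positions were seen, TTTGAA was present in 1 of 11 transport motors, in 9 of 13 mitotic motors and in 4.59% of protein-coding genes. The motif TATAAA, a common promoter box that is no part of the others, was found in 1 of 11 transport motors, 1 of 13 mitotic motors and 14.8% of protein-coding genes. Kifc1 and Kifc5b, close copies of each other, each held both TTTGAA and a CCAAT box and were counted separately among the 13 mitotic motors. A match describes letters in the window and no binding was measured.

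**Figure D1:**
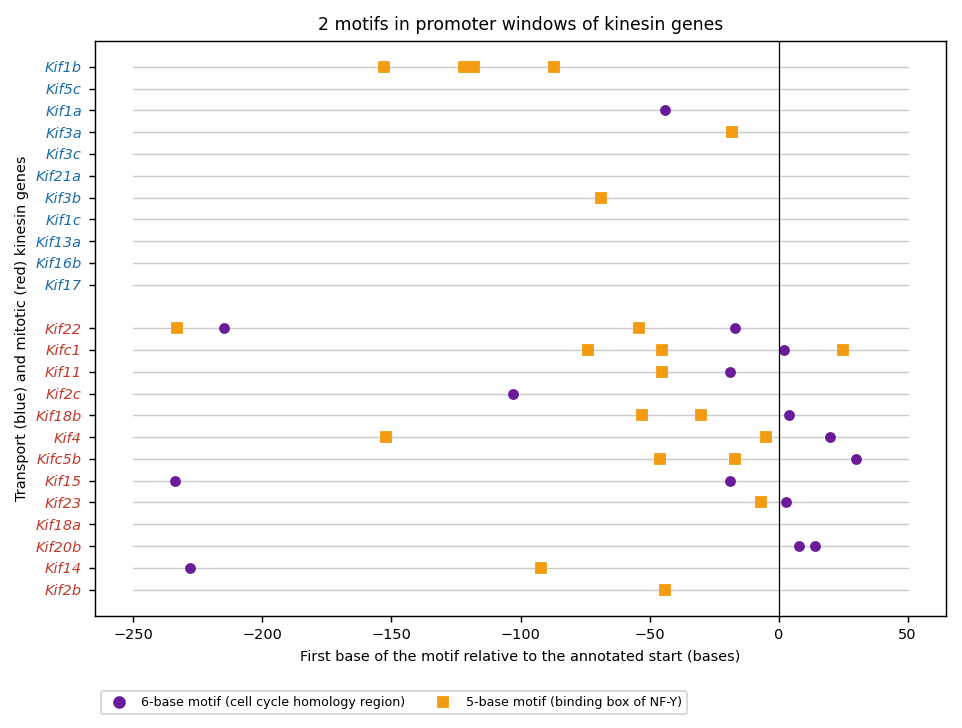
Positions of the 6-base core of the cell cycle genes homology region (circles) and of the CCAAT box (squares), on either strand, in promoter windows of 11 transport motors (blue names, above) and 13 mitotic motors (red names, below). The horizontal axis gives the first base of each match relative to the annotated start, in bases. The circles appear in 11 of 13 mitotic motors and in 1 of 11 transport motors.

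Expected counts, which are fragments assigned to a gene by estimation, summed to 1.08e+08 in replicate 1 and 1.011e+08 in replicate 2, and the members took 0.407% and 0.476% of them. Levels are given as TPM, a share of all transcripts in a library that is corrected for transcript length, so that genes can be compared within a library. Neuronal markers were abundant, with Tubb3 at 2753 TPM in replicate 1 and 2639.9 in replicate 2, and progenitor markers were present, with Sox2 at 86.4 and 68.7 TPM. In RNA of a whole tissue, fewer cells of a type and less RNA per cell cannot be told apart.

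Most kinesin genes were expressed. At a threshold of 1 TPM in both libraries, 39 of 43 members were detected, against 62.2% of all protein-coding genes. At 10 TPM in both libraries 21 members remained, among them 13 transport and 5 mitotic motors, against 41% of all protein-coding genes. The transport motors together reached 870.1 TPM in replicate 1 and 1129 in replicate 2, and the mitotic motors 179 and 103 TPM. Of the 10 highest members 9 were transport motors, and the other was Kif1bp.

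Genes of the kinesin-3 family were among the highest. Kif1b, whose products carry synaptic vesicle precursors and mitochondria (chr4:149176319-149307693, − strand, GRCm38), was measured at 157 TPM in replicate 1 and 177 in replicate 2. Kif1a, the motor of synaptic vesicle precursors (chr1:93015464-93101951, − strand), was at 97.3 and 162 TPM. The order of the pair held in both libraries, but the log2 ratio of Kif1a over Kif1b, -0.41 ± 0.39 (SD, n = 2 libraries), was hardly larger than its spread. On coding transcripts alone that ratio was -0.33 ± 0.46 (SD, n = 2), with -0.66 in replicate 1 and -0.0052 in replicate 2. Kif1c, a widely expressed relative, was far lower at 13.0 and 17.5 TPM. The endosomal members of the family were low: Kif13a, which carries mannose-6-phosphate receptor vesicles, was at 7.74 and 12.2 TPM, Kif13b at 3.61 and 4.59 TPM, and Kif16b, a motor of early endosomes, at 3.01 and 4.18 TPM.

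Among the kinesin-1 heavy chains, which form the classical axonal motor, Kif5c led (chr2:49619298-49774778, + strand), with 103 TPM in replicate 1 and 194 in replicate 2. Kif5a, the chain that in humans is mutated in a hereditary spastic paraplegia, had 74.1 and 96.7 TPM. Kif5b, the chain found in nearly all tissues, had 35.8 and 40.7 TPM. The chains kept this order in both libraries, with a log2 ratio of -0.74 ± 0.38 for Kif5a over Kif5c and of -1.88 ± 0.52 for Kif5b over Kif5c (SD, n = 2). On coding transcripts alone these ratios were -0.45 ± 0.16 and -2.18 ± 0.25 (SD, n = 2).

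The kinesin-2 genes Kif3a, Kif3b and Kif3c held nearly the same proportions in both libraries. Kif3a, which pairs with either Kif3b or Kif3c, had 65.7 TPM in replicate 1 and 76.4 in replicate 2. Kif3c, the neuronal partner, had 52.1 and 61.3 TPM, and Kif3b, the partner that also serves cilia, had 23.2 and 27.2 TPM. Kif3a exceeded Kif3b by 1.50 ± 0.011 on the log2 scale and Kif3c exceeded Kif3b by 1.17 ± 0.0023 (SD, n = 2). Kif17, the homodimeric member that carries NMDA receptor vesicles in dendrites, was the lowest transport motor at 1.71 and 2.93 TPM. Its exons overlap Sh2d5 on the same strand, a gene at 16.0 and 17.1 TPM, which makes the value of Kif17 uncertain.

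The kinesin-4 members Kif21a and Kif21b walk along axons and regulate microtubule growth. Kif21b had 116 TPM in replicate 1 and 138 in replicate 2, and Kif21a had 42.4 and 50.5 TPM, a log2 ratio of Kif21a over Kif21b of -1.45 ± 0.0030 (SD, n = 2). Counted on coding transcripts alone, that ratio was -0.65 ± 0.25 (SD, n = 2), with -0.83 in replicate 1 and -0.48 in replicate 2. The minus-end motors of the kinesin-14 family were at middle levels. Kifc2, described in dendritic and axonal transport, had 57.9 and 45.1 TPM, and Kifc3, which acts at microtubule minus ends and cell junctions, had 17.4 and 19.2 TPM. Kifc2 was the only transport motor that was lower in replicate 2.

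The mitotic motors were lower. Kif22, a chromokinesin that pushes chromosome arms towards the spindle equator, was the highest, at 33.1 TPM in replicate 1 and 17.3 in replicate 2. Kif11, which slides antiparallel microtubules to keep the spindle bipolar, had 23.2 and 13.6 TPM, and Kif15, which shares in this task, had 7.01 and 4.67 TPM. The other chromokinesin, Kif4, had 9.29 and 6.04 TPM. All 4 of these were lower in replicate 2.

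Kif2c, which shortens microtubules to correct faulty attachments, had 19.6 TPM in replicate 1 and 11.1 in replicate 2. Kif18a, which damps chromosome movement at the equator, had 6.05 and 3.23 TPM, and Kif18b, which acts on astral microtubules, had 13.2 and 7.05 TPM. Kifc1, a minus-end motor that focuses spindle poles, had 27.1 and 14.2 TPM, and its close copy Kifc5b had 9.15 and 4.89 TPM. These copies were the only 2 members with fractional expected counts at gene level, which shows that reads were divided between sequences, so their separate values are uncertain.

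The motors of cytokinesis also differed among themselves. Kif20a, which brings the chromosomal passenger complex to the midzone, had 20.4 TPM in replicate 1 and 11.6 in replicate 2. Kif20b, a midbody motor needed for normal cortical size in the mouse, had only 3.08 and 2.58 TPM, a log2 ratio over Kif20a of -2.45 ± 0.40 (SD, n = 2). Kif14, the partner of citron kinase, had 2.18 and 1.54 TPM. Kif23, which forms centralspindlin with Racgap1, had 5.46 and 5.62 TPM and was the only one of the 13 mitotic motors at 1 TPM or more that was not lower in replicate 2. Racgap1 itself had 97.6 and 63.4 TPM, so the genes of the 2 centralspindlin subunits differed by a log2 ratio of 3.83 ± 0.47 (SD, n = 2). Kif2b had no count in either library, where 3 counts would have given 0.0217 TPM in replicate 1 and 0.0241 in replicate 2.

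The median transport motor stood at 42.4 TPM (replicate 1) and 45.1 TPM (replicate 2), compared with 9.22 and 5.83 TPM for the median mitotic motor. The median of all protein-coding genes, silent ones included, was 5.41 and 5.93 TPM. Among protein-coding genes with a mean of at least 1 TPM it was 19.3 and 19.8 TPM, above the median mitotic motor. Transport over mitotic motors was a 4.60-fold ratio in replicate 1 and a 7.73-fold ratio in replicate 2, or 2.58 ± 0.53 on the log2 scale (SD, n = 2). The classes overlapped: 10 of 17 transport motors lay above the highest mitotic motor in replicate 1 and 13 of 17 in replicate 2. Kif13b, Kif16b and Kif17 lay below most mitotic motors. The named examples stood far apart, with Kif1a over Kif11 at 2.82 ± 1.06 and Kif5c over Kif23 at 4.67 ± 0.62 on the log2 scale (SD, n = 2).

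**Figure D2:**
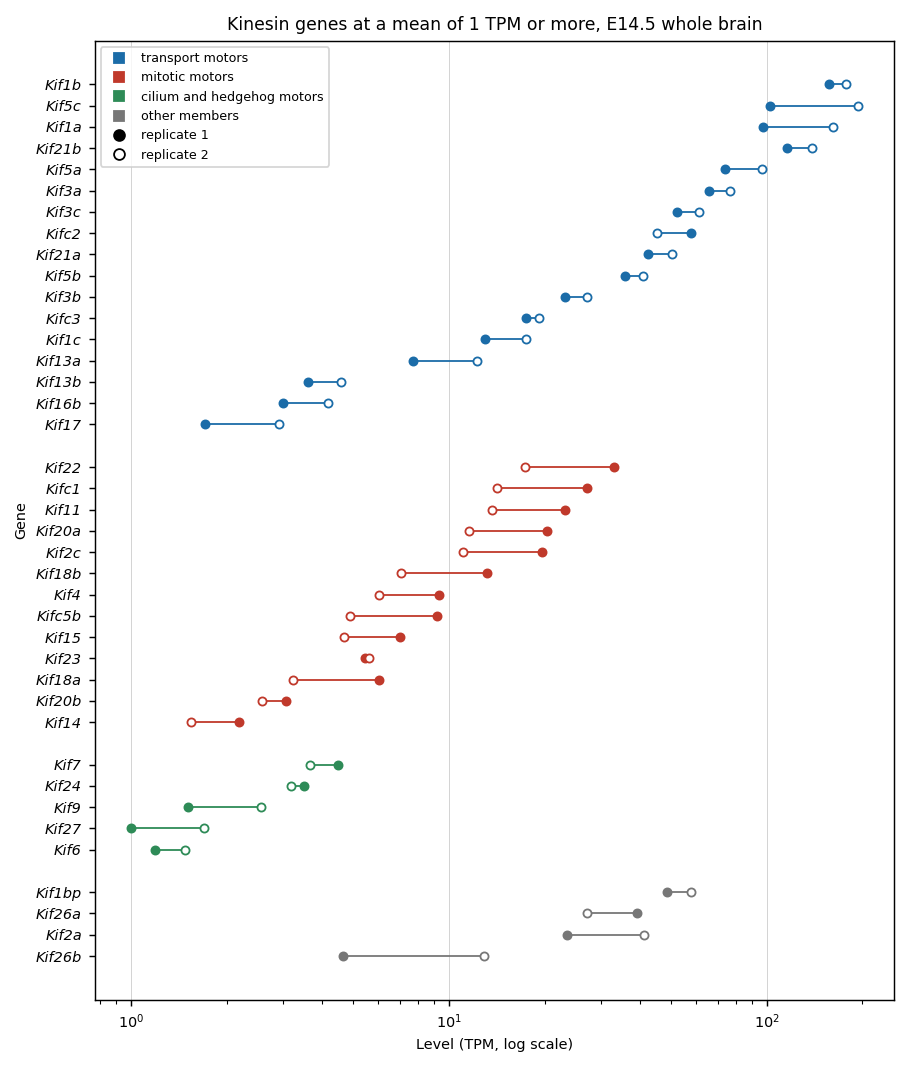
Level in TPM (horizontal log axis) of the 39 kinesin genes whose mean was at least 1 TPM, by class, with transport motors at the top. Filled circles are replicate 1, open circles replicate 2, and each line joins the libraries of 1 gene. The median transport motor had 42.4 TPM in replicate 1 and 45.1 in replicate 2, the median mitotic motor 9.22 and 5.83 TPM, and open circles lie to the left of filled ones for 12 of 13 mitotic motors.

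The 6 members counted as motors of the cilium and of hedgehog signalling were low. Kif3b, which also serves cilia, was counted among the transport motors. Kif7, which regulates Gli factors of the hedgehog pathway at the cilium tip, had 4.49 TPM in replicate 1 and 3.65 in replicate 2, and Kif24, a depolymerase at the mother centriole that restrains cilium formation, had 3.51 and 3.19 TPM. Kif9 and Kif6, linked to motile cilia, had 1.51 and 2.57 TPM and 1.19 and 1.48 TPM. Kif27, a relative of Kif7 that in the mouse serves motile cilia, had 1.00 and 1.70 TPM. Kif19a, which limits cilium length, stayed below the threshold at 0.62 and 0.74 TPM. The ciliated-cell markers were uneven, with Ttr at 994 and 1336 TPM, Foxj1 at 18.4 and 22.6 TPM, Rsph1 at 0.50 and 2.55 TPM, Dnah5 at 0.16 and 0.26 TPM, and Ccdc153 at 0.02 TPM in both libraries.

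Of the members outside these classes, Kif1bp had 48.6 TPM in replicate 1 and 57.7 in replicate 2. Kif2a, a depolymerase that trims axon branches and also acts at spindle poles, had 23.5 and 40.9 TPM. Its log2 ratio over the mitotic relative Kif2c, 1.07 ± 1.15 (SD, n = 2), was smaller than the spread. Kif26a, a signalling kinesin without motor activity, had 39.2 and 27.3 TPM. Its relative Kif26b (chr1:178529125-178939200, + strand) had 4.63 and 12.9 TPM. Kif12 and Kif28 were near 0, at 0.04 and 0.03 TPM and at 0.02 and 0.05 TPM.

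When the 39 detected members were ordered by mean TPM, few neighbours stood apart. Of 38 neighbouring pairs, 6 were separated by more than the larger of their SDs, and 12 had the same order in both libraries. Kif21b over Kif5a, Kif3a over Kif3c and Kif21a over Kif5b met both conditions among the higher genes. Of the 12 gene pairs examined, all had the same sign in both libraries, and 9 differed by more than 1 on the log2 scale and by more than the SD. On coding transcripts alone, Kif21a over Kif21b no longer reached 1.

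The libraries themselves differed by class. On the log2(TPM + 1) scale, which understates differences of low genes, 16 of 17 transport motors were higher in replicate 2, where 51% of the 13642 protein-coding genes with a mean of at least 1 TPM were higher. Of the 13 mitotic motors at that level, 12 were lower in replicate 2, where 48.8% of those genes were lower. The median log2 ratio of replicate 2 over replicate 1 was 0.25 for transport motors, -0.73 for mitotic motors and 0.011 for those genes, whose central 95% lay between -0.75 and 0.91. Among members with a mean of at least 1 TPM, Kif26b was the only one 2-fold or more higher in replicate 2, as 3.49% of those genes were, and no member was 2-fold or more lower, as 1.28% were. The lowest ratios were those of Kif22 (-0.90) and Kifc1 (-0.89), and the highest among the transport motors were those of Kif5c (0.91) and Kif1a (0.73).

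Transcript length moved with the library difference. Over all protein-coding genes at that level, the tenth with the longest transcripts had a median log2 ratio of 0.30 and the tenth with the shortest one of -0.29. After subtraction of the median of genes of like length, 9 transport motors were higher and 8 lower in replicate 2, with a class median of 0.061, while all 13 mitotic motors were lower, with a class median of -0.79. With TMM or DESeq2 scaling, and also against genes of like length or like GC content, Kif23 changed sign from 0.035 and all 13 were lower. The median of all genes at that level also went from 0.011 to -0.038 with TMM and with DESeq2 scaling. Relative to genes of like length the transport motors thus had no common direction, whereas the difference of the mitotic motors was as large as before.

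**Figure D3:**
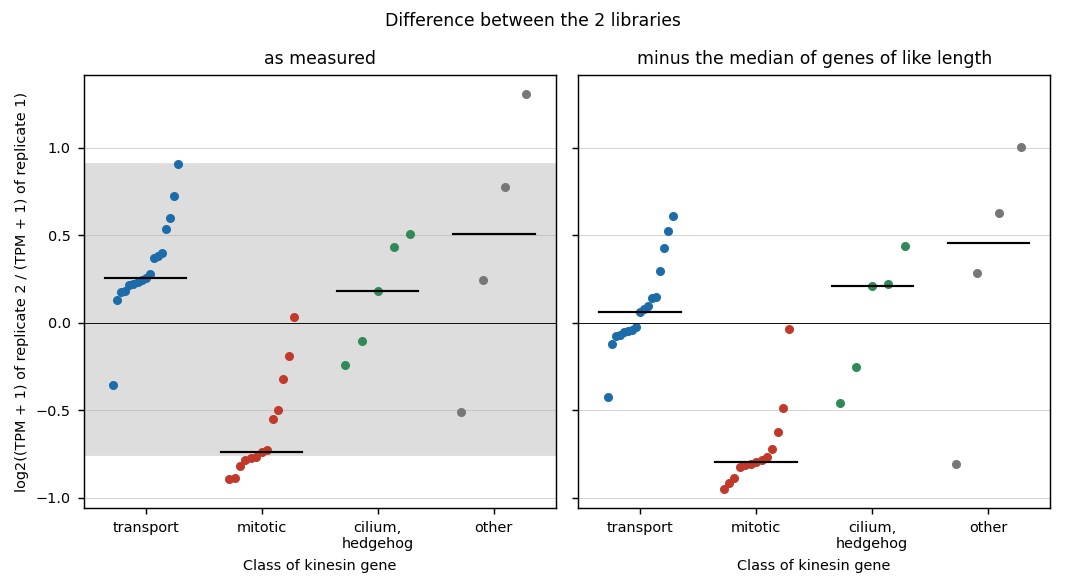
Log2 ratio of replicate 2 over replicate 1, computed on TPM + 1, for kinesin genes whose mean was at least 1 TPM (points, with the class median as a bar), as measured (left) and after subtraction of the median of genes of like length (right). The grey band holds the central 95% of 13642 protein-coding genes, -0.75 to 0.91. The median of transport motors was 0.25 as measured and 0.061 after subtraction, and that of mitotic motors -0.73 and -0.79.

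Markers of cycling cells moved the same way as the mitotic motors. They summed to 509 TPM (replicate 1) and 282 TPM (replicate 2), and 4 of 5 were lower in replicate 2: Cdk1, Pcna, Mcm2 and Top2a. The exception, Mki67, had 12.4 TPM in replicate 1 and 13.8 in replicate 2. Of the 6 neuronal markers 5 were higher in replicate 2, with sums of 4437 TPM (replicate 1) and 4858 TPM (replicate 2), and 4 of 6 progenitor markers were lower, with sums of 2045 and 1859 TPM. All 3 red blood cell markers were higher in replicate 2, with sums of 42.7 and 68.3 TPM. Of the 5 markers of ciliated cells 4 were higher in replicate 2 and 1 was equal, with sums of 1013 and 1362 TPM, of which Ttr made up nearly all. Of the 13642 protein-coding genes with a mean of at least 1 TPM, 51% were higher and 48.8% lower in replicate 2. Lists of 3 to 6 genes are too short to set such counts apart from these shares. The markers were not set against genes of like length, and the part of cell makeup in the difference between the libraries was not tested.

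Most partners of the mitotic motors were also lower in replicate 2, but they were not set against genes of like length. All 16 were detected, at a median of 27.4 TPM in replicate 1 and 18.8 in replicate 2, and 14 of 16 were lower in replicate 2, where 48.8% of the 13642 genes were lower. The highest were the kinase gene Cdk1, also counted among the cycling-cell markers, at 167 and 70.7 TPM, Racgap1, and the cyclin gene Ccnb1, at 84.7 and 36.9 TPM. Cdk1 and Ccnb1 were 2-fold or more lower in replicate 2, as 1.28% of the 13642 genes were, and so were the chromosomal passenger genes Aurkb, at 62.3 and 29.1 TPM, and Birc5, at 51.3 and 24.2 TPM. The exceptions, named after their values were seen, were Cit, which encodes citron kinase, at 7.34 and 9.63 TPM, and Incenp, the scaffold of the passenger complex, at 12.1 and 14.0 TPM. The list also holds Cenpe, itself a mitotic kinesin whose symbol does not meet the rule. It was counted as lower but was nearly equal, at 3.76 TPM in replicate 1 and 3.72 in replicate 2.

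Adaptors and cargo partners of the transport motors were more abundant. All 20, among them the member Kif1bp, were detected, at a median of 49.5 TPM in replicate 1 and 62.5 in replicate 2. Of these, 14 were higher in replicate 2, where 51% of the 13642 genes were higher. They were not set against genes of like length. Klc1, the leading kinesin-1 light chain, had 414 and 456 TPM and exceeded Klc2 by 2.13 ± 0.05 on the log2 scale (SD, n = 2). Fez1, a kinesin-1 adaptor, had 286 and 243 TPM, and Mapk8ip3, an adaptor of axonal cargo, had 179 and 185 TPM. Clstn1, a cargo receptor for light chains, was the only partner of this list with a 2-fold difference, at 42.6 and 110.5 TPM. Of the 13642 genes, 3.49% were 2-fold or more higher in replicate 2.

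The median transport motor, at 42.4 TPM in replicate 1 and 45.1 in replicate 2, was lower than the median gene of the opposing motor complex. That list mixes motor subunits and cofactors, so its median does not compare the amounts of the motors. All 18 genes of dynein and its cofactor dynactin were detected, at a median of 178 TPM in replicate 1 and 168 in replicate 2. In replicate 2, 9 genes were higher and 9 lower, near the shares of the 13642 genes, 51% and 48.8%. The highest encode light chains, Dynlt1b at 741 and 569.3 TPM, Dynlrb1 at 712 and 569.6 TPM, and Dynll1 at 504 and 458 TPM.

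**Figure D4:**
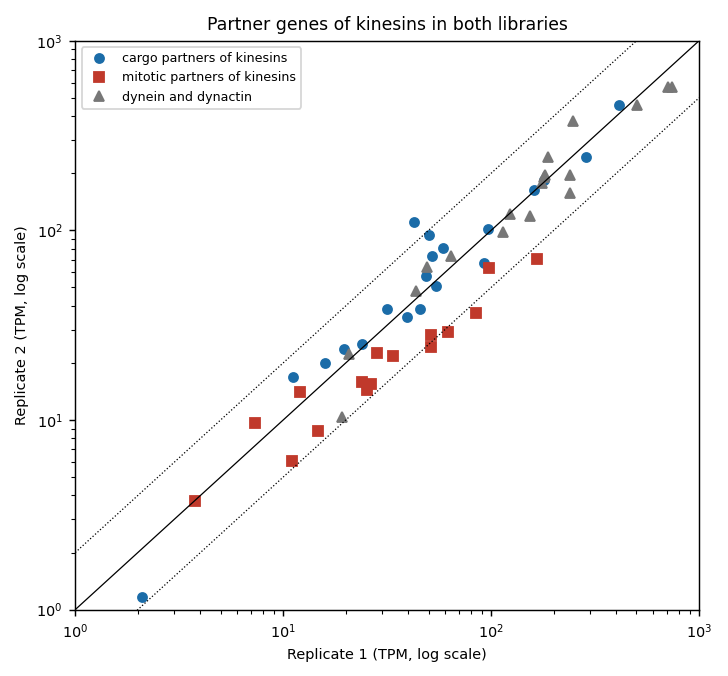
Level of kinesin partner genes in replicate 1 (horizontal) and replicate 2 (vertical), in TPM on log axes, for 20 cargo partners (circles), 16 mitotic partners (squares) and 18 genes of dynein and dynactin (triangles). The solid line marks equal levels and the dotted lines a 2-fold difference. Of the 16 mitotic partners 14 lie below the solid line, and of the 20 cargo partners 14 lie above it. Of the 13642 protein-coding genes with a mean of at least 1 TPM, 48.8% were lower and 51% higher in replicate 2.

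Most abundant members were carried by 1 leading transcript. Of the 16 members at a mean of 10 TPM or more with at least 2 transcripts, all had the same leading transcript in both libraries, and in 14 it held over 50% of the gene's TPM in each. Kif1a-204 held 76.6% of Kif1a in replicate 1 and 79.8% in replicate 2. Kif1b was divided between the long Kif1b-203 of 10233 nt, with 53.6% and 55.7%, and Kif1b-207 of 3391 nt, with 35.3% and 30.0%. Kif3a-203 held 98.2% ± 1.64 of its gene (SD, n = 2).

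Shares moved between the libraries in Kif5c, Kif21b and Kif2a. Kif5c-201 held 91.1% in replicate 1 and 73.7% in replicate 2, while Kif5c-203, a processed transcript of 480 nt with no coding sequence annotated, held 8.61% and 21.8%, or 8.83 and 42.3 TPM. The difference of Kif5c between the libraries was thus smaller for the coding transcript, at 93.4 TPM in replicate 1 and 143 in replicate 2. Kif21b-201 held 65.2% and 50.7%, and Kif21b-204, annotated as a target of nonsense-mediated decay, held 33.4% and 46.2%. Counted on coding transcripts alone, Kif21b was 75.6 TPM in replicate 1 and 70.2 in replicate 2, so its direction turned. Kif2a-206 held 8.21% and 27.7%. Short transcripts weigh more in TPM than in fragments, and by expected counts the leading transcript of Kif5c held 99.0% of its gene.

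**Figure D5:**
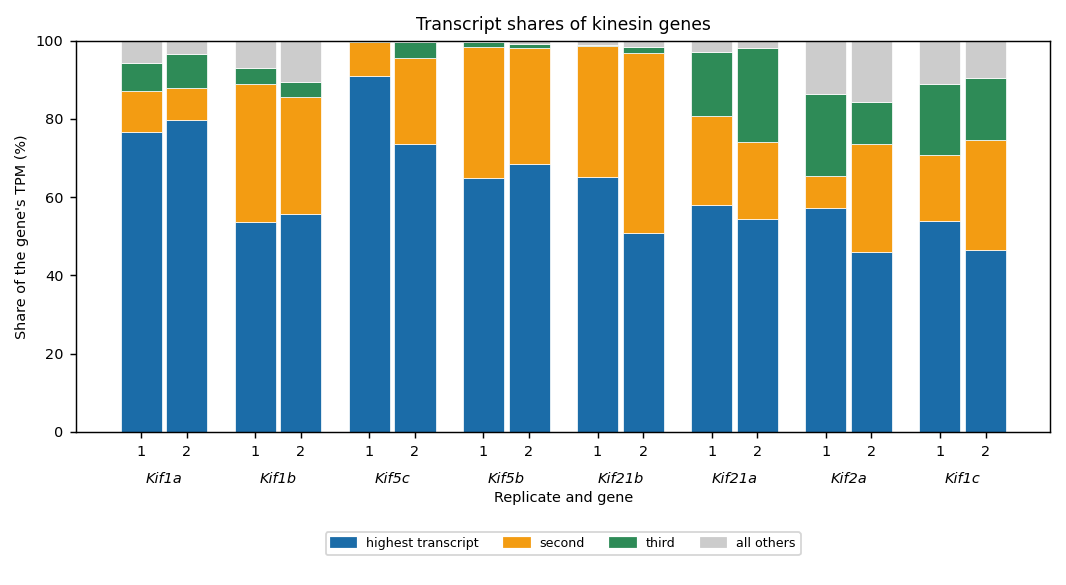
Share of each gene's TPM held by its transcripts in replicate 1 and replicate 2, for 8 kinesin genes. Colours run from the highest transcript (blue) through the next ones to all others (grey). The leading share of Kif5c was 91.1% in replicate 1 and 73.7% in replicate 2, and that of Kif1a 76.6% and 79.8%.

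Reads over splice junctions, deposited on the older build mm9 with both replicates summed, gave a second view of these choices. At the Kif21b site of the decay transcript, 2745 reads (61.3%) joined chr1:138069580-138070613, which skips the extra exon, and 1735 reads (38.7%) joined chr1:138069580-138070048, which enters it. In Kif2a, 740 reads (77.6%) left the exon of Kif2a-204 and Kif2a-206 across chr13:107758869-107759783 and 214 reads (22.4%) skipped it across chr13:107758869-107764574. Kif2a-201, annotated with the skipping junction, had nevertheless the largest estimated share of the gene, 57.2% in replicate 1 and 46.0% in replicate 2. In Kif1a, 2782 reads crossed chr1:94922313-94933422, the junction of Kif1a-201 and Kif1a-203, and 1298 reads crossed chr1:94922313-94923408, that of Kif1a-204. The transcript with the largest estimated share of Kif1a therefore held 30.7% of the reads at that site in the mm9 annotation. The shares were estimated on other transcript models than those of the mm9 junctions, and whether the models differ at these sites was not tested.

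In Kif1b, 2543 reads (97.8%) crossed chr4:148566797-148572540, shared by Kif1b-202 and Kif1b-203, against 58 reads (2.23%) over the junction of Kif1b-207, chr4:148566797-148569581. The estimated share of Kif1b-207 was far above that. A junction without annotation in the mm9 models, chr4:148632191-148636244, held 496 reads, 63.8% of those at its donor. In Kifc3, another such junction, chr8:97624353-97625308, held 474 reads, 86.8% of those at its donor. Over the 40 members with at least 100 junction reads, unannotated junctions held a median of 2.63% of them, between 0.634% in Kif5a and 20.6% in Kif17, and over 10% in 5 members. Kif17 had only 479 reads over its annotated junctions. Its span also held 2029 reads over 13 junctions of another gene, which the share leaves out. Whether the 124 unannotated reads belong to Kif17 was not tested.

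Exons of some members overlap genes on the opposite strand, such as those of Kif20a with Cdc23, at 127 and 105 TPM. The libraries are stranded per the labels, but the sources used here do not say whether the estimation used the strand.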

How the data were processed

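Polyadenylated RNA of 2 libraries of 1 group was measured. Expected counts were estimated by the authors per gene and transcript on mm10 (annotation GENCODE M4), per the text notes beside the files. The sources used here name no tool. In the deposited TPM values all rows, spike-ins included, enter the total, while FPKM, also deposited, is relative to length and assigned fragments. On mm9, the authors deposited RPKM values on Ensembl 65, whose 2 values per gene are not tied to a sample, and junction read counts with both replicates summed.

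Symbols and coordinates came from GENCODE vM21 (GRCm38) by Ensembl identifier, and promoters from RefSeq (GRCm38.p6). Members, classes, partner lists and pairs were chosen with earlier results of these data known. Every member at a mean of 1 TPM or more was named with its values, and from each partner list the 3 highest genes and those that differed 2-fold between libraries. Library differences are log2 ratios with a pseudocount of 1. No p-value was computed. Scaling used edgeR 4.0.16 and DESeq2 1.42.0 in R 4.3.3 on expected counts rounded to whole numbers, and its steps were tested on simulated data. Tables were made with Python 3.11.15, pandas 2.3.3 and numpy 2.4.6. A floor of 3 counts covers counting error only and equals 2.78e-06% of all counts for replicate 1 and 2.97e-06% for replicate 2.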

Additional observations from a re-analysis of the deposited data

How the results depend on the processing

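Of the alternative values of the main results, 52 kept direction and size, 12 moved and none reversed. Counts and levels have no direction, so they could not be labelled reversed. Some alternatives could hardly change a result, such as FPKM for the log2 ratio of transport over mitotic motors, 2.58 in either unit. The tally is therefore no measure of robustness. Detection fell to 21 members at a threshold of 10 TPM and also to 21 with mm9 RPKM. The level of transport motors was 28.7 in FPKM, 54.5 in TPM rescaled to the annotated genes without the mitochondrial ones and 5.53 in mm9 RPKM. The main value of that level, the median over genes of the mean of both libraries, was 46.5 TPM. With each library left out the level ranged over 42.4 to 45.1 TPM. The level of mitotic motors was 4.58 in FPKM and 1.01 in mm9 RPKM, against a main value of 7.34 TPM. The library difference of mitotic motors was -0.84 with TMM and -0.84 with DESeq2 size factors. Against genes of like length, an alternative chosen after seeing the data, the library difference of transport motors was 0.061 and the mitotic minus transport difference -0.86, against 0.25 and -0.99 as measured. For FPKM and RPKM the unit itself differs, rescaled TPM differ from TPM by a factor per library, and a higher threshold can only lower a count. With TMM and with DESeq2 size factors the median of all genes at a mean of at least 1 TPM was -0.038, against 0.011 in TPM. For the other moved values the cause was not tested. In mm9 RPKM, 5 pairs moved by more than their SD without a change of sign: Kif1a over Kif1b to -1.31 (-0.41 in TPM), Kif21a over Kif21b to -1.18 (-1.45), Kif3a over Kif3b to 1.46 (1.50), Kif3c over Kif3b to 1.08 (1.17) and Klc1 over Klc2 to 2.01 (2.13). Coding transcripts alone, also chosen after seeing the data, gave Kif21a over Kif21b -0.65. No paired analysis was possible because both libraries belong to 1 group. With 2 libraries, an SD is itself poorly known, and depth limits only the members near 0.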
